A study of Saccharomyces cerevisiae with 4 samples.

Results

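The 9 genes described here are budding yeast genes of the hypoxic response, 8 of them known to be repressed when heme and oxygen are present, and the other, *ROX1*, the heme-induced gene of the repressor: *HEM13* (YDR044W), *ROX1* (YPR065W), *ANB1* (YJR047C), *AAC3* (YBR085W), *TIR1* (YER011W), *TIR2* (YOR010C), *TIR3* (YIL011W), *TIR4* (YOR009W) and *DAN1* (YJR150C). They were named from 6692 genes in the count table by their known regulation, with no threshold on measured values but with earlier results of these data known, and 8 of the 9 passed the filter on low counts. The RNA came from 2 *sis2Δ* cultures and 2 wild-type (WT) cultures of the haploid BY4741 background, replicates A and B of each strain. Both strains carry *his3Δ1*, *leu2Δ0*, *met15Δ0* and *ura3Δ0* and are *MATa*. The *sis2Δ* strain carries in addition a kanMX cassette in place of *SIS2*, as a single deletion strain of the knockout collection. *SIS2* encodes a subunit of the enzyme that makes a coenzyme A intermediate and an inhibitor of the phosphatase Ppz1. All cultures grew to mid-log phase in synthetic complete medium with 2% glucose, in 15 ml. BY4741 descends from S288C, whose heme-responsive activator gene *HAP1* carries a transposon insertion, so both strains share that limit as a model of heme signalling. No measurement of heme or oxygen in these cultures was used here.

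Budding yeast needs oxygen to make heme, sterols and unsaturated fatty acids, and heme levels serve the cell as a signal of oxygen. With oxygen present, heme-bound Hap1 and other activators raise respiratory genes and *ROX1*, whose product, an HMG-box repressor, sits on hypoxic promoters with the Tup1-Ssn6 corepressor. When oxygen or heme runs out, Rox1 is lost and its targets are derepressed. The cell wall genes *TIR1* to *TIR4* and *DAN1* are further set by Upc2, an activator that answers to low sterol and binds the sterol response element, and by the repressor Mot3. Heme synthesis also consumes iron, and the activator Aft1 sets a regulon of iron genes.

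Each of the 9 promoters held the letters ATTGTT, the core of the Rox1 site, on either strand within the 600 bases before the start codon. These letters are common, and 54.9% of 5999 promoters of that length held them. The stretches below are shown because they hold the Rox1 core in promoters with quite different readouts in *sis2Δ* cells, and for *DAN1* also the elements of the anaerobic activators. They are from the R64 genome (RefSeq), each written 5′ to 3′ on the strand of its gene, with the matches in capitals. AACAAT is ATTGTT on the other strand. In *DAN1*, TATACGA is the sterol response element TCGTATA on the other strand, and TCGTTCAG is a match to the AR1 element TCGTTNAG.
*ANB1*, chrX:525566-525701, minus strand: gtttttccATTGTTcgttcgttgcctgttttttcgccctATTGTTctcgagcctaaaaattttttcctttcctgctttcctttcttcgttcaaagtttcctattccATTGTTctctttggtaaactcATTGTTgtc
*HEM13*, chrIV:546442-546481, plus strand: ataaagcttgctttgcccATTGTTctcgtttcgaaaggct
*ROX1*, chrXVI:679282-679321, plus strand: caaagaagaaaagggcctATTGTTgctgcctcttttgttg
*AAC3*, chrII:415770-415809, plus strand: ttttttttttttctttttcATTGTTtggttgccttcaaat
*TIR1*, chrV:174894-174933, plus strand: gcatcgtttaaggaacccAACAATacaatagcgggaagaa
*TIR2*, chrXV:347031-347070, minus strand: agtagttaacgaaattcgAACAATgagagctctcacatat
*TIR3*, chrIX:333466-333505, plus strand: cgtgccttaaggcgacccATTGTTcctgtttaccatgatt
*TIR4*, chrXV:343955-343994, plus strand: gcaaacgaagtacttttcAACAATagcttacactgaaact
*DAN1*, chrX:709872-709957, minus strand: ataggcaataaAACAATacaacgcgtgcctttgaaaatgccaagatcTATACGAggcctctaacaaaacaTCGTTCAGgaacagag

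*ANB1* held 4 matches to the Rox1 core in the 600 bases, the most of the 9 genes. *HEM13* held 3, *AAC3* and *TIR2* held 1 each, and the other 5 genes held 2 each. The longer run ATTGTTCTC was searched for after the core matches had been seen. It occurred in *HEM13* and *ANB1*, against 1.30% of all promoters. The sterol response element TCGTATA occurred in *TIR1*, *TIR3* and *DAN1* (8.58% of all promoters), and TCGTTNAG in *TIR4* and *DAN1* (5.95%). The CCAAT box bound by the heme-activated Hap2/3/4/5 complex was found upstream of *HEM13*, *ROX1*, *AAC3* and *TIR3*, and 70.3% of promoters held it. None of the 9 held TGCACCC, the core of the Aft1 site (2.68% of promoters). Every motif was searched on both strands, and ATTGTT is part of ATTGTTCTC. A match is a description of these windows and not a measured site.

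**Figure D1:**
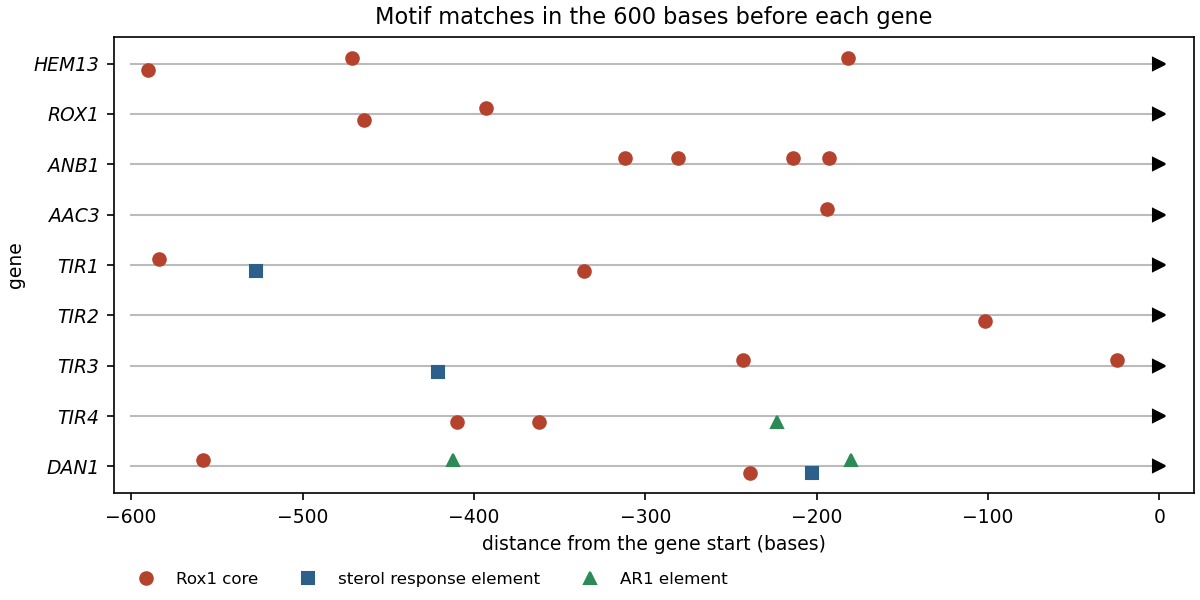
Motif matches in the 600 bases before each of the 9 genes, with distance from the start codon in bases on the x axis, 1 gene per row and 1 marker per match (both strands). The 4 Rox1 core matches of *ANB1* lie within 136 bases, and *DAN1* has Rox1 core, sterol response element and AR1 matches.

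Library totals ran between 19001619 and 28069619 gene counts. *SIS2* itself had 6 and 9 counts in the *sis2Δ* libraries, against 3991 and 2208 in WT A and B, so the counts match the strain labels. *URA3* and *MET17*, deleted in both strains, had no counts in any library, and *LEU2*, also deleted, had 1 count, in *sis2Δ* B. The libraries of a strain differed by more than counting noise, the chi-square over genes per degree of freedom being 58.0 between the *sis2Δ* libraries and 19.8 between the WT libraries. *STE2*, the alpha-factor receptor of *MATa* cells, averaged 464 RPKM in *sis2Δ* and 418 RPKM in WT, and the alpha-cell gene *STE3* 8.93 RPKM in *sis2Δ* and 7.33 RPKM in WT. The a-factor genes of *MATa* cells were higher in *sis2Δ*, *MFA1* at 275 and 320.3 CPM in *sis2Δ* A and B, against 164 and 154 CPM in WT A and B (log2 fold change 0.90, adjusted p = 0.000614, edgeR). *MFA2* was at 650.4 and 523 CPM in *sis2Δ* A and B, against 353 and 402 CPM in WT A and B (0.64, adjusted p = 0.0228, and 0.208 without WT A). Across the genome 362 of 5959 tested genes differed between the strains (adjusted p under 0.05, edgeR), 200 of them lower and 162 higher in *sis2Δ*. With libraries scaled by their totals alone the split was 128 lower and 188 higher.

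Of the 8 tested genes, 4 fell in *sis2Δ*: *ANB1*, *AAC3*, *TIR1* and *TIR3*. The other 4, *HEM13*, *ROX1*, *TIR2* and *TIR4*, did not pass the test, and none rose. Genome-wide 6.07% of the tested genes were called, 3.36% lower and 2.72% higher. In each of the 4 that fell, both *sis2Δ* libraries were below both WT libraries, as was so for 28.6% of all tested genes. The median log2 fold change of the 8 was -0.37, beside -0.0050 for all tested genes. The 4 genes that fell were weakly expressed in WT cells, and the changes on the log2 scale lay between -0.81 and -0.68. The calls were also read under 8 other ways of processing the 4 libraries and with each library left out. The share of all genes called lower was 3.31% with limma-voom, 3.52% with DESeq2, 3.54% with median-ratio size factors, 2.15% with library totals alone, 2.37% with no filter, 3.32% with at least 10 counts in every library, 6.38% with a replicate block and 3.41% with the legacy fit. It was 1.68% without *sis2Δ* A, 9.68% without *sis2Δ* B (where 7.95% were called higher), 2.43% without WT A and 1.69% without WT B. In bulk RNA, fewer cells that express a gene and less RNA per cell cannot be told apart.

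On the RPKM scale, which divides normalized counts by coding length so that genes can be set side by side, the 9 genes fell into clearly different levels. *HEM13* averaged 100.2 RPKM over the 4 libraries and *ROX1* 82.9 RPKM. *ANB1* followed at 14.7 RPKM, its lowest library touching the highest of *TIR3*. *TIR3* (7.89 RPKM), *AAC3* (7.75 RPKM), *TIR1* (6.99 RPKM) and *TIR2* (6.38 RPKM) were close to each other, and their ranges over the libraries overlapped. *TIR4* averaged 4.22 RPKM, and *DAN1* stood at 0.209 RPKM. *HEM13* and *ROX1* also overlapped each other, while no library of *ANB1* came near them.

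**Figure D2:**
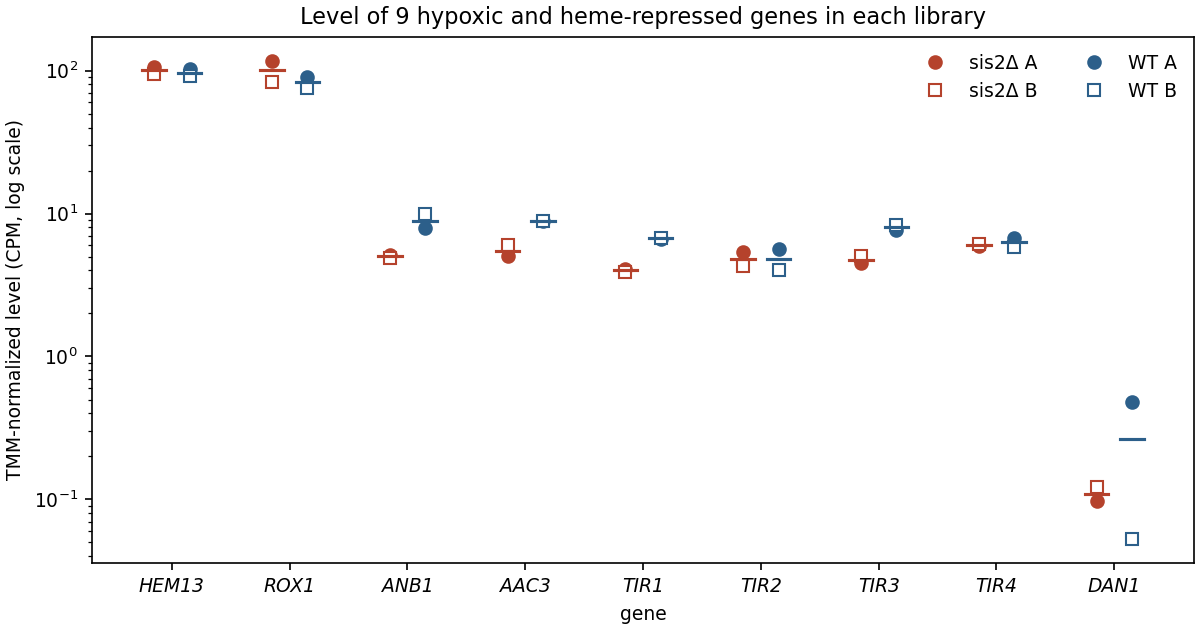
Normalized level of each of the 9 genes in each library, as CPM (counts scaled to library size, with TMM factors) on a log axis, with *sis2Δ* A and B left of WT A and B. Both *sis2Δ* points lie below both WT points for *ANB1*, *AAC3*, *TIR1* and *TIR3*, while those of *HEM13*, *ROX1*, *TIR2* and *TIR4* overlap with WT.

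*ANB1* encodes the hypoxic form of the translation factor eIF5A and is a classical target of Rox1. It lies on chrX:524908-525381, minus strand, as 1 coding exon. Its level was 5.16 and 4.89 CPM in *sis2Δ* A and B, against 7.90 and 9.90 CPM in WT A and B. The groups did not overlap, and the mean was 5.02 ± 0.188 CPM in *sis2Δ* and 8.90 ± 1.41 CPM in WT (SD, n = 2 each). The log2 fold change was -0.81 (SE 0.19, 95% interval -1.22 to -0.41, adjusted p = 0.0229 by the quasi-likelihood test of edgeR). For each of the 4 genes that fell, the lowest adjusted p among the 8 other ways of processing came from the replicate block. Without that fit, the lowest for *ANB1* was 0.0166 (edgeR with median-ratio size factors). Its call held in all 8 other ways of processing the 4 libraries (adjusted p between 0.000394 and 0.0446). It was lost without *sis2Δ* A (log2 fold change -0.84, adjusted p = 0.0622 by edgeR) and without WT B (-0.63, adjusted p = 0.220).

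*AAC3* encodes the ADP/ATP carrier of the mitochondrial inner membrane that is made under low oxygen. The gene lies on chrII:415983-416906, plus strand. It measured 5.01 and 5.99 CPM in *sis2Δ* A and B, against 8.82 and 8.84 CPM in WT A and B. Both *sis2Δ* libraries were below both WT libraries, with means of 5.50 ± 0.693 CPM in *sis2Δ* and 8.83 ± 0.0164 CPM in WT (SD, n = 2 each). The log2 fold change was -0.68 (SE 0.18, 95% interval -1.06 to -0.30, adjusted p = 0.0405, edgeR). This was the least firm of the 4 calls. It held in 3 of the 8 other ways of processing (adjusted p between 0.00378 and 0.0790), and was lost without *sis2Δ* A (-0.55, adjusted p = 0.171), without WT A (-0.68, adjusted p = 0.104) and without WT B (-0.65, adjusted p = 0.160; edgeR).

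*TIR1* and *TIR3* encode serine-rich mannoproteins anchored in the cell wall, which replace other wall proteins during anaerobic growth. *TIR1*, on chrV:175248-176012, plus strand, measured 4.09 and 3.91 CPM in *sis2Δ* A and B, against 6.69 and 6.72 CPM in WT A and B. *TIR3*, on chrIX:333727-334536, plus strand, measured 4.47 and 5.01 CPM in *sis2Δ* A and B, against 7.71 and 8.36 CPM in WT A and B. For both genes the observed spread within a strain was small beside the gap between the strains. With 2 libraries per strain that spread is only roughly known, and *TIR1* had just 182 and 127 counts in WT A and B. *TIR1* averaged 4.0 ± 0.123 CPM in *sis2Δ* and 6.70 ± 0.0258 CPM in WT (SD, n = 2 each), and its log2 fold change was -0.75 (SE 0.19, 95% interval -1.15 to -0.34, adjusted p = 0.0349, edgeR). *TIR3* averaged 4.74 ± 0.380 CPM in *sis2Δ* and 8.04 ± 0.459 CPM in WT (SD, n = 2 each), and its log2 fold change was -0.75 (SE 0.18, 95% interval -1.14 to -0.36, adjusted p = 0.0284, edgeR).

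The *TIR1* call held in 4 of the 8 other ways of processing (adjusted p between 0.00486 and 0.0753) and the *TIR3* call in 6 of 8 (between 0.00176 and 0.0556). The lowest value of each gene came from the replicate block. Leaving out *sis2Δ* A ended both calls, with adjusted p of 0.0891 for *TIR1* and 0.114 for *TIR3* (edgeR). Leaving out WT B did the same, with 0.156 for *TIR1* and 0.168 for *TIR3*. Without WT A the *TIR1* call was lost (adjusted p = 0.104) and the *TIR3* call was kept (adjusted p = 0.0447). The log2 fold changes without 1 library stayed between -0.76 and -0.71 for *TIR1* and between -0.84 and -0.66 for *TIR3*.

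*TIR2* and *TIR4*, which encode mannoproteins of the same family, gave no such difference. *TIR2*, on chrXV:346195-346950, minus strand, measured 5.35 and 4.28 CPM in *sis2Δ* A and B, against 5.66 and 4.02 CPM in WT A and B. *TIR4*, on chrXV:344335-345798, plus strand, measured 5.93 and 6.15 CPM in *sis2Δ* A and B, against 6.72 and 5.88 CPM in WT A and B. The groups overlapped for both genes. The log2 fold change of *TIR2* was -0.04 (SE 0.22, 95% interval -0.52 to 0.44, adjusted p = 0.939, edgeR). That of *TIR4* was -0.07 (SE 0.18, 95% interval -0.46 to 0.32, adjusted p = 0.862). Neither interval includes -0.75, the value of *TIR1* and *TIR3*, but the difference between *TIR1* or *TIR3* and these 2 genes was not tested.

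*TIR2* and *TIR4* are neighbours, 396 bp apart, and *AUS1*, a sterol importer made without oxygen, lies 2728 bp from *TIR2*. The ratio of *TIR1* to *TIR2* counts within a library does not depend on how libraries are scaled. It was 0.764 and 0.914 in *sis2Δ* A and B, against 1.18 and 1.67 in WT A and B. The ratio of *TIR3* to *TIR4* was 0.754 and 0.815 in *sis2Δ* A and B, against 1.15 and 1.42 in WT A and B. Both ratios were lower in each *sis2Δ* library than in either WT library, whereas the ratio of *TIR1* to *TIR3* overlapped, at 0.913 and 0.780 in *sis2Δ* A and B, against 0.867 and 0.804 in WT A and B. These ratios were chosen after the values had been seen and carry no test.

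*DAN1*, which encodes another mannoprotein of anaerobic cells (chrX:708811-709707, minus strand), had 2 and 3 counts in *sis2Δ* A and B, against 13 and 1 in WT A and B. It did not pass the filter, and its WT libraries lay on both sides of the floor of 3 counts, which is between 0.110 and 0.159 CPM. A difference in *DAN1* was not detectable at this depth. *DAN1* therefore adds nothing to the count of genes that fell.

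*HEM13* encodes coproporphyrinogen III oxidase, the heme synthesis step that uses oxygen, and is strongly repressed by Rox1. On chrIV:546642-547628, plus strand, it measured 106 and 95.3 CPM in *sis2Δ* A and B, against 103 and 91.0 CPM in WT A and B. The groups overlapped, with means of 101 ± 7.89 CPM in *sis2Δ* and 96.9 ± 8.33 CPM in WT (SD, n = 2 each). The log2 fold change was 0.06 (SE 0.11, 95% interval -0.18 to 0.30, adjusted p = 0.810, edgeR). That interval does not reach the log2 changes of the 4 genes that fell.

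*ROX1*, the repressor gene itself, lies on chrXVI:679693-680799, plus strand. It measured 117 and 83.4 CPM in *sis2Δ* A and B, against 90.4 and 75.9 CPM in WT A and B. The *sis2Δ* libraries differed from each other by more than the strains did, with means of 100 ± 24.0 CPM in *sis2Δ* and 83.1 ± 10.2 CPM in WT (SD, n = 2 each). The log2 fold change was 0.27 (SE 0.15, 95% interval -0.06 to 0.60, adjusted p = 0.324, edgeR). It was 0.50 without *sis2Δ* B, where it passed the test (adjusted p = 0.0206), and 0.015 without *sis2Δ* A, so 1 library decides its size.

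**Figure D3:**
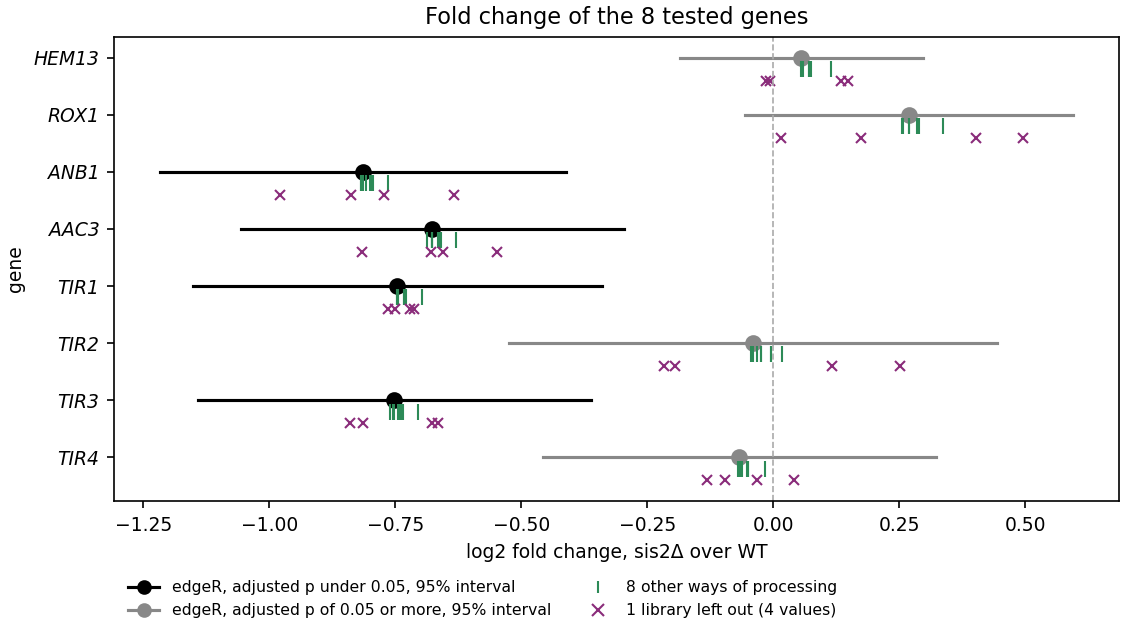
Log2 fold change of *sis2Δ* over WT for the 8 tested genes (x axis), with the edgeR value and its 95% interval, the values from 8 other ways of processing and the 4 values with 1 library left out. The intervals of *ANB1*, *TIR1*, *TIR3* and *AAC3* lie below 0, and those of *HEM13*, *ROX1*, *TIR2* and *TIR4* include 0.

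Several of the 9 genes have near relatives, so reads could be assigned to the wrong copy. *ANB1* and *HYP2*, the aerobic eIF5A gene, are 90.9% identical over 474 bases, with a longest shared run of 43 bases. *AAC3* and *PET9* are 78.4% identical, with a longest run of 20 bases, and *TIR1* and *TIR2* 78.5%, with a longest run of 40. No window of 100 bases, the length of an untrimmed read, in any of the 9 genes was found elsewhere in the genome. Trimmed reads could be as short as 20 bases, so these windows do not cover every read. *HYP2* averaged 1179 CPM in *sis2Δ* and 1065 CPM in WT, against 5.02 and 8.90 CPM for *ANB1*. A small share of misassigned *HYP2* reads would therefore weigh on *ANB1*, and this was not tested. How reads that map to several places were treated is not given in the sources used here.

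Hypoxic genes of yeast often have a partner that serves the same role in air. The pairs were compared by the log2 ratio of their counts, each divided by coding length. *HYP2* averaged 1179 ± 144 CPM in *sis2Δ* and 1065 ± 3.83 CPM in WT (SD, n = 2 each), and its log2 fold change was 0.15 (adjusted p = 0.669, edgeR). The log2 ratio of *ANB1* to *HYP2* was -7.68 and -8.01 in *sis2Δ* A and B, against -7.06 and -6.74 in WT A and B, a difference of -0.95. *PET9*, the main ADP/ATP carrier gene, averaged 357 ± 68.9 CPM in *sis2Δ* and 330 ± 46.3 CPM in WT (adjusted p = 0.714, edgeR). The log2 ratio of *AAC3* to *PET9* was -5.86 and -6.01 in *sis2Δ* A and B, against -5.30 and -5.0 in WT A and B, a difference of -0.78. Both hypoxic copies thus made up a smaller share of their pair in each *sis2Δ* library than in either WT library.

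For the cytochrome c oxidase subunit pair, the log2 ratio of hypoxic *COX5B* to aerobic *COX5A* was 0.84 and 0.74 in *sis2Δ* A and B, against 1.03 and 1.03 in WT A and B, a difference of -0.24. The ratio for the cytochrome c pair, hypoxic *CYC7* to aerobic *CYC1*, ran the other way, at 2.33 and 1.61 in *sis2Δ* A and B, against 1.49 and 1.52 in WT A and B, a difference of 0.46. For the HMG-CoA reductases, *HMG2* to *HMG1*, the ratio overlapped between the strains, with a difference of 0.06. Unlike *ANB1* and *AAC3*, the hypoxic genes *COX5B*, *CYC7* and *HMG2* had a higher level per length than their aerobic partners in every library. Whether these ratios follow oxygen in these cultures was not tested. Taken singly, none of *COX5A* (log2 fold change 0.27, adjusted p = 0.182), *COX5B* (0.03, 0.897), *CYC7* (0.0023, 0.996), *HMG1* (-0.17, 0.445) and *HMG2* (-0.10, 0.644) passed edgeR's test, nor did *AAC1*, a minor ADP/ATP carrier gene (-0.21, 0.514). With 2 libraries against 2 the smallest two-sided p of an exact permutation test is 0.333, which the first 4 pairs reached, and no pair could pass 0.05 (adjusted over 5 pairs, 0.417).

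**Figure D4:**
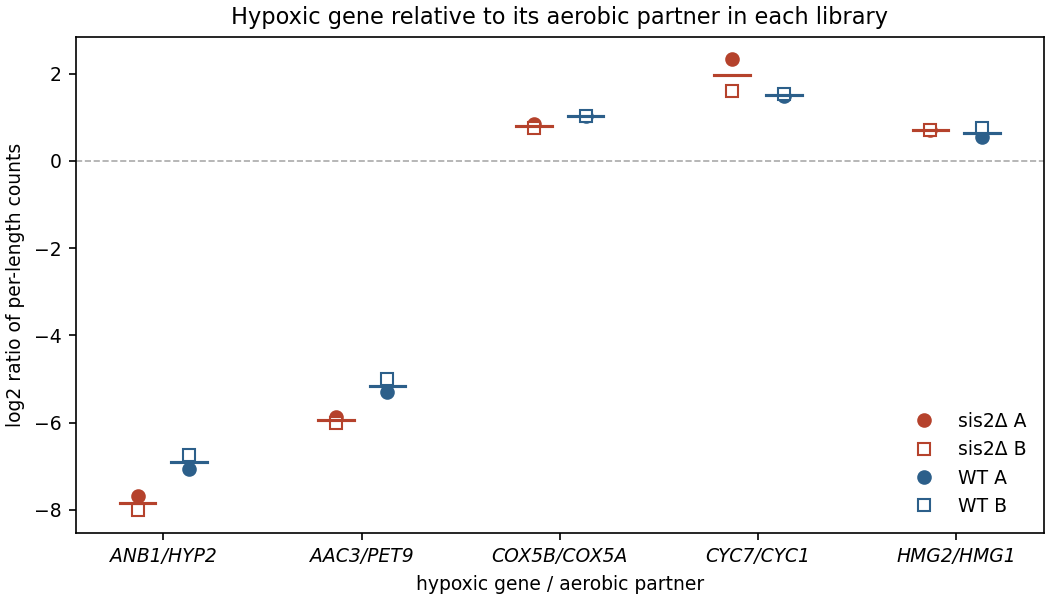
Log2 ratio of hypoxic to aerobic gene within each library for 5 pairs (y axis), with *sis2Δ* A and B left of WT A and B. The ratios of *ANB1* to *HYP2* and *AAC3* to *PET9* are lower in both *sis2Δ* libraries, and the ratio of *CYC7* to *CYC1* is higher in both.

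*CYC1*, the gene of the main cytochrome c and a target of heme-activated Hap1, is the chromosomal neighbour of *ANB1*. The genes are divergent and 953 bp apart. *CYC1* measured 34.8 and 40.7 CPM in *sis2Δ* A and B, against 50.3 and 54.6 CPM in WT A and B. Its log2 fold change was -0.47 (SE 0.12, adjusted p = 0.0381, edgeR), so the genes on both sides of this upstream region fell. Whether the falls of *CYC1* and *ANB1* are related was not tested. The call on *CYC1* was lost with library totals alone (adjusted p = 0.0935), with no filter (0.0574), without *sis2Δ* A (0.178) and without WT B (0.282; edgeR).

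Other genes of heme and oxygen biology were taken as lists. Of all tested genes, 3.36% were called lower and 2.72% higher, and the counts for each list are to be read beside these shares. Among 10 genes of heme synthesis and breakdown, 1 fell and none rose, with a median log2 fold change of -0.18. The gene that fell was *COX10*, which makes heme O on the way to the heme A of cytochrome oxidase. It measured 23.0 and 27.2 CPM in *sis2Δ* A and B, against 36.5 and 37.7 CPM in WT A and B (log2 fold change -0.56, SE 0.13, adjusted p = 0.0222, edgeR). That call was lost with library totals alone (0.0517), without *sis2Δ* A (0.108) and without WT B (0.105). *HEM12*, the uroporphyrinogen decarboxylase gene, was just outside the threshold at -0.37 (adjusted p = 0.0547).

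Among 13 regulators of the heme and oxygen response, edgeR called none, and 3 had an unadjusted p under 0.05. Of all 5959 tested genes, 1253 had such a p. The median log2 fold change of these regulators was -0.0015. Of 10 listed genes that heme activators are known to raise, 2 rose and none fell, with a median of 0.29. *CYC1*, which a heme activator also raises, fell but was counted with the partners above and not in this list. *CTT1*, the cytosolic catalase, is also a general stress gene. It measured 426 and 487 CPM in *sis2Δ* A and B, against 230.2 and 231 CPM in WT A and B (log2 fold change 0.98, SE 0.12, adjusted p = 0.000451, edgeR), and it kept the call under every alternative run. *COX4*, a cytochrome oxidase subunit, measured 106 and 110.4 CPM in *sis2Δ* A and B, against 77.1 and 85.3 CPM in WT A and B (0.42, SE 0.11, adjusted p = 0.0362). Its call was lost without *sis2Δ* A (0.0530), without WT A (0.234) and without WT B (0.0555). *CYT1*, the gene of cytochrome c1, was just outside the threshold at 0.41 (adjusted p = 0.0532).

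Of 7 other hypoxic genes, 1 fell and none rose, with a median of -0.12. It was *AUS1*, at 34.7 and 45.0 CPM in *sis2Δ* A and B, against 61.0 and 60.3 CPM in WT A and B (log2 fold change -0.60, SE 0.13, adjusted p = 0.0185, edgeR; 0.0897 without *sis2Δ* A). *OLE1*, the fatty acid desaturase gene, was at 0.37 (adjusted p = 0.242) and *CYB5*, the gene of cytochrome b5, an electron donor in lipid synthesis, at 0.37 (adjusted p = 0.0990). Both are among the 6 genes of this list that did not pass the test.

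Of 5 other wall mannoprotein genes, none fell and 1 rose, with a median log2 fold change of 0.53. *TIP1*, a mannoprotein gene of cold-shocked cells, measured 357 and 386 CPM in *sis2Δ* A and B, against 246 and 210.3 CPM in WT A and B (log2 fold change 0.70, SE 0.12, adjusted p = 0.0054, edgeR; 0.0583 without WT B). *CWP2* was at 0.53 (adjusted p = 0.158, edgeR) and *SED1* at 0.68 (adjusted p = 0.252), and neither passed the test. *DAN4*, a relative of *DAN1* that lies 2547 bp from it, was at -0.0037 (adjusted p = 0.993). The seripauperin (PAU) family of small wall proteins has 24 listed genes, of which 8 could be tested. None of these was called, and 1 had an unadjusted p under 0.05 (edgeR), beside 1253 of all 5959 tested genes. Of the 8, *PAU6* shares 100% of its windows of 100 bases with other places in the genome, so its value is uncertain, while *PAU7*, *PAU17* and *PAU23* share none and the other 4 between 5.30% and 22.7%.

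The iron uptake and use genes were the list with the most calls. Of 26, 14 fell and none rose, with a median log2 fold change of -0.50. *FRE5*, a putative ferric reductase gene, was at -3.43, and *FIT2* and *FIT3*, genes of wall mannoproteins that retain siderophore iron, were at -3.04 and -2.21 (adjusted p from the quasi-likelihood test under 0.05 for each). *FET3*, the ferroxidase gene of high-affinity iron uptake, was just outside the threshold at -0.47 (adjusted p = 0.0523). The log2 falls of the 4 hypoxic genes were smaller than those of *FRE5*, *FIT2* and *FIT3*, but larger than that of *FET3*. Most of the called iron genes fell more than all 4 hypoxic genes, and the rest fell less than all 4. Taken over all tested genes, called or not, the median was -0.37 for the 8 hypoxic genes and -0.50 for the 26 iron genes. Whether the hypoxic genes and the iron genes moved together was not tested.

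**Figure D5:**
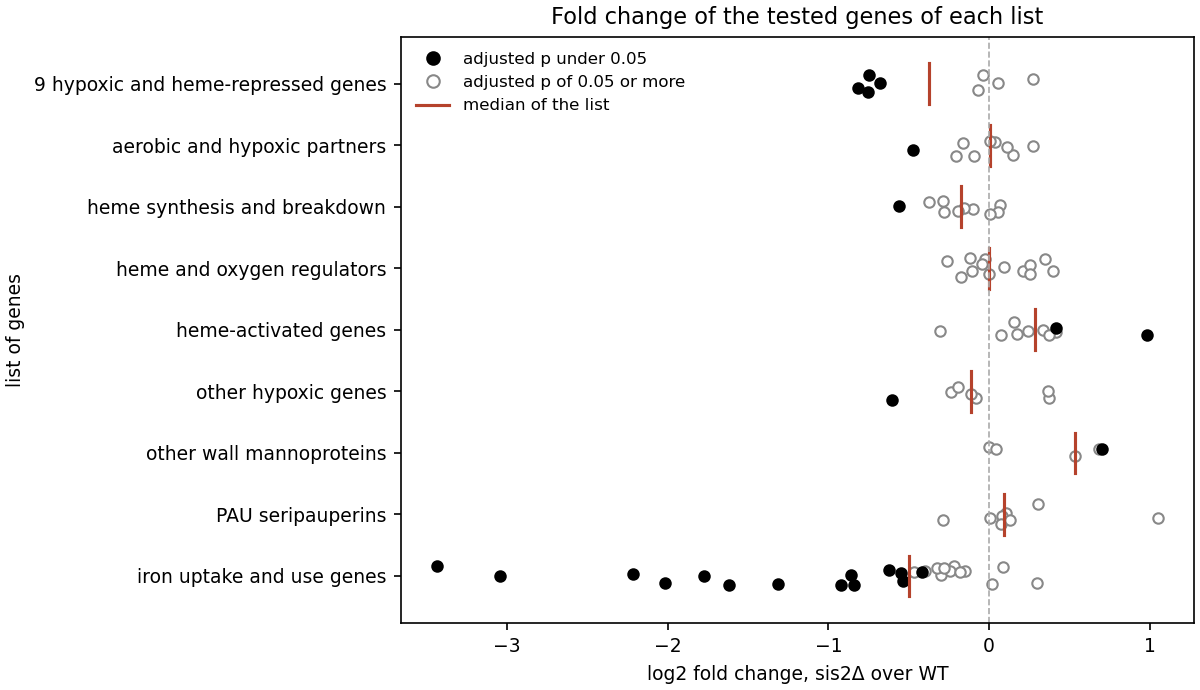
Log2 fold change of *sis2Δ* over WT for the tested genes of each list (x axis), 1 point per gene, with the list's median and the genes that passed edgeR's test marked. The 4 hypoxic genes that fell lie between -0.81 and -0.68, and 14 of the 26 iron genes fell, down to -3.43 for *FRE5*.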

How the data were processed

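RNA was measured by polyA-selected, stranded RNA-seq with paired reads of 100 bases in 2 *sis2Δ* and 2 WT cultures, grouped by the strain in the sample labels. The authors trimmed reads with Cutadapt 3.7 (length 20, quality 20), mapped them to R64 with STAR 2.7.8a and counted them per gene, reverse-stranded, with featureCounts 2.0.1. They deposited raw counts. The gene annotation they used is not given in the sources used here. A second deposited table holds the fold changes, mean expression and p-values of their limma (3.48.0) fit and was not used.

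Tested genes (5959 of 6692) had 0.5 CPM or more in 2 or more libraries. Counts were scaled by TMM and tested with the quasi-likelihood fit of edgeR 4.0.16 in R 4.3.3, and p-values were adjusted by Benjamini-Hochberg over all tested genes. On simulated data of *sis2Δ* against WT over 5933 genes, edgeR recovered 100 of 100 genes changed by log2 1 and 59 of 99 changed by log2 0.5. It also called 6 unchanged genes. The simulation gave every gene the same spread beyond counting error and pooled all levels, so it does not give the recovery for weakly expressed genes. The count floor was 3, and floors cover counting error only. The methods call the 2 cultures of a strain independent, but *sis2Δ* is 1 deletion strain, so p-values measure the spread between cultures. Alternatives were limma-voom (limma 3.58.1), DESeq2 1.42.0, other scalings and filters, a replicate block, the legacy fit and leaving out each library. Where a library was left out, the lone library was assumed to vary like the others.

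Sequences and positions were read from the R64 RefSeq genome, in which 121 of 121 listed genes were matched. Log2 ratios of hypoxic to aerobic partners were computed with 2 counts added to each gene and divided by coding length. Named were all 9 genes, their partners, *SIS2*, every called gene of the other lists (for iron and PAU genes the 3 with the largest changes), neighbours that were listed or called, and up to 2 genes per list nearest to the threshold. The 9 genes and the lists were chosen with earlier results of these data known.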

Additional observations from a re-analysis of the deposited data

How the results depend on the processing

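Of the 4 genes of the 9 that fell, limma-voom and library totals alone called 1 each, and DESeq2 and the fit with no filter called 2 each. Without 1 library, between 0 and 5 of the 9 were called, 0 to 4 of them lower and 0 to 1 higher. None was called without *sis2Δ* A, where 1.68% of all genes were called lower, or without WT B (1.69%). The log2 fold change of *AAC3* no longer passed with limma-voom (-0.68), DESeq2 (-0.67), library totals alone (-0.63), no filter (-0.66) or the legacy fit (-0.68). *TIR1* no longer passed with limma-voom (-0.74), DESeq2 (-0.73), library totals alone (-0.70) or no filter (-0.73), and *TIR3* with limma-voom (-0.74) or library totals alone (-0.70). With 1 library left out, log2 fold changes ranged between -0.98 and -0.63 for *ANB1*, -0.82 and -0.55 for *AAC3*, -0.76 and -0.71 for *TIR1*, -0.84 and -0.66 for *TIR3*, 0.015 and 0.50 for *ROX1*, -0.01 and 0.15 for *HEM13*, -0.22 and 0.25 for *TIR2*, and -0.13 and 0.04 for *TIR4*. No called value changed sign. The cause of these changes was not tested.

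Over all genes, leaving out 1 library gave between 197 and 1051 calls, 100 to 577 lower and 96 to 474 higher, and over the lists between 15 and 34 calls, against 20. Library totals alone gave 128 lower and 188 higher, so that 59.5% of calls were higher, against 44.8% with TMM. The labels do not say whether cultures with the same replicate letter were handled together. Across genes, the correlation of their deviations from the strain means was 0.0956. A replicate block gave 788 calls, 380 lower and 408 higher, and kept 4 calls among the 9 genes. In windows of 300 bases the Rox1 core ATTGTT was found in 6 of the 9 promoters (not in *ROX1*, *TIR1* or *TIR4*), against 34.1% of all promoters of that length, the sterol response element was found in 1 of the 9 promoters and CCAAT in 2. With 1 library left out, the difference in the log2 ratio lay between -1.11 and -0.78 for *ANB1* to *HYP2*, -0.93 and -0.64 for *AAC3* to *PET9*, -0.29 and -0.19 for *COX5B* to *COX5A*, 0.10 and 0.82 for *CYC7* to *CYC1*, and -0.04 and 0.16 for *HMG2* to *HMG1*. The search for ATTGTTCTC was added after seeing the data. With 76 to 182 counts per library, *TIR1* and *TIR2* are among the genes whose precision is limited by depth.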
